A study of Brassica rapa with 6 samples.

Results

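Rubisco, the enzyme that fixes carbon dioxide in the Calvin cycle, is built in chloroplasts from large chains, encoded in the chloroplast genome, and small chains, encoded by a family of nuclear genes. Rubisco activase is an ATP-driven chloroplast protein that removes inhibitory sugar phosphates from the active sites of Rubisco, so that the enzyme can be carbamylated and work. In leaves both are made mainly in mesophyll cells in the light, and the small chain genes are among the most strongly transcribed nuclear genes of green tissue. The loci described here are the 8 of 49200 loci in the deposited table that carry a single gene name and a description naming either a Rubisco small chain (4 loci) or Rubisco activase (4 loci).

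RNA was measured in petioles (3 libraries, numbered 1 to 3) and leaves (3 libraries, numbered 1 to 3) of baby Chinese cabbage, a form of *Brassica rapa*. Both tissues came from an inbred line, were harvested when mature and received no treatment. Total RNA was extracted with Trizol, depleted of ribosomal RNA and made into strand-specific libraries. Whether the numbered libraries came from separate plants is not in the labels, so p-values reflect the spread among these libraries, part of which could be technical.

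Petiole libraries held 120805715 to 132861243 units of deposited estimated counts and leaf libraries 111518411 to 121161682 units, with a median of 3.78 units per fragment. Levels are given as deposited FPKM (fragment number corrected for the length of the transcript and for depth), so that loci can be set side by side. Differences between tissues are log2 fold changes of petiole over leaf from edgeR's quasi-likelihood test, with standard errors (SE) and Benjamini-Hochberg adjusted p over 31473 loci tested, called at 0.05. The edgeR SE was worked back from the test, as the absolute log2 fold change over the square root of the F statistic. The 2 scales are not centred alike. The median difference was 0.01 over the 31473 loci tested in edgeR. In limma on log2(FPKM + 1) it was 0.59 over 24027 loci, and 0.36 over 35962 loci without the mean FPKM minimum of 1. Folds read from FPKM are therefore smaller than the edgeR folds for loci that were lower in petiole. Of all loci tested 62.6% were called, 31.1% lower in petiole and 31.5% higher in petiole.

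The tissue labels were compared with marker loci matched by description. Summed chlorophyll a-b binding loci, a mark of mesophyll, ran from 368 to 402 CPM (counts relative to TMM-scaled library size) in petiole and from 4039 to 4453 CPM in leaf; of 24 such loci tested, 23 were lower in petiole, none was higher and 1 did not pass, with a median log2 fold change of -3.66. The guard cell channel SLAC1, the only guard cell marker matched, lay at 1.24 to 1.77 CPM in petiole and 6.31 to 9.19 CPM in leaf. The xylem and secondary wall list summed to 127 to 147 CPM in petiole and 48.6 to 55.8 CPM in leaf, with 7 of 7 tested loci higher in petiole. The list for the petiole base and organ boundary summed to 125 to 130 CPM in petiole and at least 18.5 CPM in every leaf library, with 19 of 22 tested loci higher and 1 lower in petiole. Some of the 19, among them 3 at 0 in every leaf library, passed the filter on low counts only through petiole. Their direction was fixed by the filter, so this count of loci does not bear on the tissue labels. Epidermis markers summed to 83.1 to 84.9 CPM in petiole and 53.4 to 57.7 CPM in leaf (3 of 4 higher in petiole, 1 lower), and phloem markers to 209 to 217 CPM in petiole and 334 to 348 CPM in leaf (8 of 18 lower in petiole, 5 higher). Of 25 mesophyll loci, 2 were at 0 in every petiole library. Of these, 1 was tested, through leaf alone, so its direction was fixed by the filter. Likewise the phloem locus MSTRG.25651, called higher in petiole, passed the filter only through petiole. The chlorophyll a-b binding and SLAC1 markers moved in the same direction as the tested small chain and activase loci below. The xylem, boundary and epidermis sums moved the other way, and the phloem loci were mixed. The part of all these markers in the results below was not tested. In bulk tissue, fewer cells of a type and less RNA per cell cannot be told apart.

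Of the 8 loci, 2 of 4 small chain loci and 4 of 4 activase loci had enough counts to be tested. Of these, the small chain locus BraA02g017420.3C, passed the filter on low counts only through leaf, so its direction was fixed by the filter and it is left out of the counts. The other 5 passed it on their petiole counts, in deposited units, as well. All 5 were called lower in petiole, with no overlap between the tissues. Of all loci tested, 35.4% had every petiole library below every leaf library and 71.3% had no overlap in either direction. Of the 5, 4 were called and at least 8-fold lower in petiole, which held for 5.04% of all loci tested. Both counts include BraA07g019510.3C, which had 5.82, 4.5 and 5.56 fragments in petiole libraries 1, 2 and 3. Counted in fragments, it would have passed the filter through leaf alone, so its direction adds nothing to these counts. Without it the 4 activase loci remain, all called lower in petiole. Within the set the drop was uneven, from 3.53-fold for 1 activase locus to 1529-fold for 1 small chain locus.

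**Figure D1:**
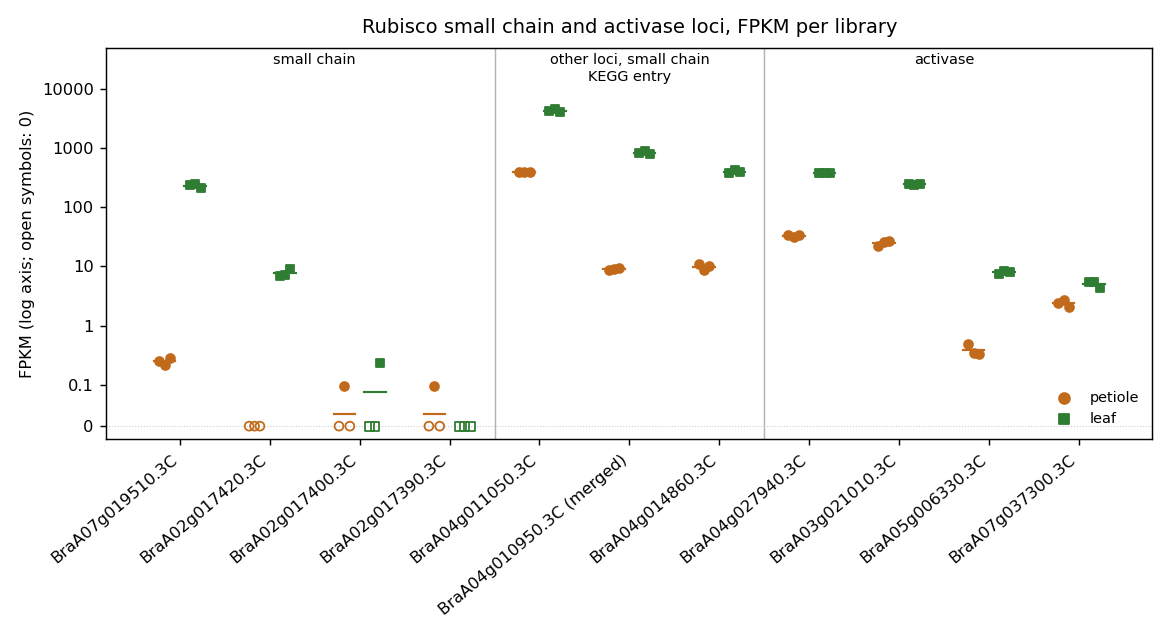
Deposited FPKM (log axis, values of 0 as open symbols on the dotted line) of the 4 small chain loci, the 3 further loci with the small chain KEGG entry and the 4 activase loci, in 3 petiole libraries (circles) and 3 leaf libraries (squares), with bars at the tissue means. BraA07g019510.3C lies between 0.214 and 0.279 FPKM in petiole and between 213 and 248 FPKM in leaf, whereas the petiole values of BraA07g037300.3C, from 2.07 to 2.69 FPKM, lie close under its leaf values of 4.35 to 5.43 FPKM.

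Among the 4 small chain loci chosen by description, BraA07g019510.3C (described as small chain F1-like, A07, 16449761 to 16450565, minus strand) carried nearly all of the leaf signal. It had 0.251, 0.214 and 0.279 FPKM in petiole libraries 1, 2 and 3, against 236, 248 and 213 FPKM in leaf libraries 1, 2 and 3. Every petiole library was near the limit of detection, with 5.82, 4.5 and 5.56 fragments, and every leaf library was high, with 5979, 6491 and 5434 fragments. The means were 0.248 ± 0.0325 FPKM in petiole and 232 ± 17.9 FPKM in leaf (SD, n = 3 each), which placed the locus at rank 29527 of all loci in petiole and at rank 111 in leaf. The log2 fold change was -10.58 (SE 0.1, edgeR adjusted p = 1.16e-12), a 1529-fold lower level in petiole. Since the petiole value rests on 16 fragments in all, the counting error of the petiole sum alone allows a fold of 947 to 2691 (95% exact Poisson interval, counting error only). That interval is wider than the 95% range given by the SE (log2 fold change -10.78 to -10.38). The fit took deposited units, 3.78 per fragment, as counts. For this locus the SE and the adjusted p are therefore too small. Of the 31473 loci tested, 99 (0.315%) had a lower log2 fold change.

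The other 3 small chain loci stood in a row on A02 within 16198 bases, all on the minus strand, with a locus for the carotenoid pathway protein ABA DEFICIENT 4 between the second and the third. BraA02g017420.3C (1B-like; A02, 9539167 to 9540001) was listed at 0 in all 3 petiole libraries, against 6.79, 7.21 and 9.01 FPKM in leaf libraries 1, 2 and 3. It was thus detected in leaf alone, with 172, 189 and 230 fragments there. A count of 0 allows up to 3 fragments, or 0.0795 to 0.0898 CPM in a petiole library. Against that floor per library the locus was at least 84.7-fold lower in petiole than its leaf mean of 7.16 ± 1.11 CPM (SD, n = 3). The edgeR adjusted p of 5.47e-08 does not test this bound, and the direction was fixed by the filter.

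The 2 remaining loci of the row were close to silent in both tissues and did not enter the test. BraA02g017400.3C (1A-like; A02, 9526925 to 9527748) had 0, 0.0945 and 0 FPKM in petiole libraries 1, 2 and 3 and 0, 0 and 0.23 FPKM in leaf libraries 1, 2 and 3. These values amount to 2.12 fragments in petiole library 2 and 6.08 fragments in leaf library 3. BraA02g017390.3C (1B-like; A02, 9523804 to 9524626) had 0.0946 FPKM, or 2.12 fragments, in petiole library 2 and was listed at 0 in the other 5 libraries. Both were at or near the floor, so no difference between tissues was detectable at this depth. Small chain genes are near-identical copies of one another, and how reads shared by copies were divided in the deposited counts is not given in the sources used here, so that the split between these loci is uncertain.

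The description rule does not take in all small chain loci of the table. The KEGG column, used as deposited, gives the small chain entry K01602 to 7 loci, which are the 4 above and 3 more, a set chosen after the values had been seen. The highest of them, BraA04g011050.3C (described only as ribulose 1,5-bisphosphate carboxylase/oxygenase; A04, 8697106 to 8697910, minus strand), had 394, 399 and 396 FPKM in petiole libraries 1, 2 and 3, against 4312, 4535 and 4096 FPKM in leaf libraries 1, 2 and 3. Petiole libraries were all alike and far below the leaf libraries, yet the locus still held rank 94 in petiole, beside rank 10 in leaf. Its log2 fold change was -4.18 (SE 0.042, edgeR adjusted p = 1.52e-12), an 18.2-fold lower level in petiole. The same limit on shared reads applies to it.

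The second locus of the KEGG set merges BraA04g010950.3C and BraA04g010970.3C, described as small chain F1 and small chain (A04, 8654619 to 8663601, plus strand). Its values were 8.56, 9.19 and 9.58 FPKM in petiole libraries 1, 2 and 3 and 818, 882 and 798 FPKM in leaf libraries 1, 2 and 3, a log2 fold change of -7.25 (SE 0.067, edgeR adjusted p = 1.14e-12). It encloses an uncharacterized locus on the same strand, MSTRG.11131. That locus had 8.69, 8.72 and 7.67 FPKM in petiole libraries 1, 2 and 3 and 5.35, 6.18 and 6.64 FPKM in leaf libraries 1, 2 and 3. How reads were divided between them is not given, so the petiole level of the merged locus may not be small chain RNA alone. The third, BraA04g014860.3C, which the table describes as a virus-resistance protein (A04, 11439356 to 11440144, minus strand), had 11.2, 8.59 and 10.1 FPKM in petiole libraries 1, 2 and 3 and 386, 423 and 396 FPKM in leaf libraries 1, 2 and 3, a log2 fold change of -6.07 (SE 0.1, edgeR adjusted p = 7.72e-10). Neither locus had overlapping tissues. The 5 tested loci of the KEGG set therefore fell by very different factors, with the most abundant one falling least.

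This unevenness showed in which loci supplied the small chain RNA of each tissue. BraA04g011050.3C made up 95.3% ± 0.26 of the summed FPKM of the 7 loci in petiole and 74.5% ± 0.301 in leaf (SD, n = 3 each). The merged locus made up 2.19% ± 0.118 in petiole and 14.4% ± 0.152 in leaf, and BraA04g014860.3C 2.4% ± 0.321 in petiole and 6.95% ± 0.24 in leaf. BraA07g019510.3C supplied 0.0597% ± 0.00789 in petiole and 4.01% ± 0.129 in leaf. The shares depend on the scale: on CPM, with no length correction, the merged locus held 4.29% ± 0.226 in petiole and 25.2% ± 0.233 in leaf, and BraA04g011050.3C 93.3% ± 0.258 in petiole and 65.2% ± 0.35 in leaf (SD, n = 3 each). For each of these shares, on either scale, the libraries of the tissues did not overlap, and the exact two-sided permutation test gave p = 0.1, the smallest that 3 against 3 libraries can give (0.14 after adjustment over the 7 loci). Within the 4 loci chosen by description, BraA07g019510.3C supplied 100%, 53.1% and 100% in petiole libraries 1, 2 and 3 and 97.2%, 97.2% and 95.8% in leaf libraries 1, 2 and 3 (exact permutation p = 1.0). The low value of petiole library 2 comes from the 2.12 fragments of each silent A02 locus, and without that library the difference of petiole minus leaf changes from -12.4 to 3.26 percentage points. BraA02g017420.3C supplied 0% in petiole and 3.23% ± 0.719 in leaf of the same sum (exact permutation p = 0.1, 0.4 after adjustment over 4 loci).

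**Figure D2:**
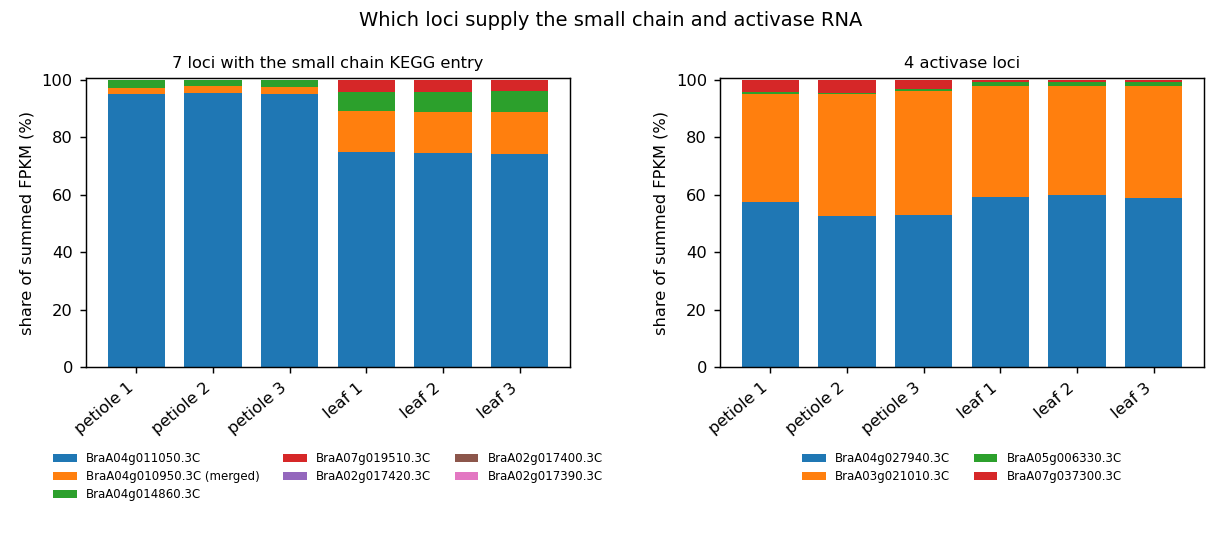
Share of each locus in the summed FPKM (%) of the 7 loci with the small chain KEGG entry (left) and of the 4 activase loci (right), as stacked bars for each petiole and leaf library. The bottom segment on the left, BraA04g011050.3C, averages 95.3% in petiole and 74.5% in leaf; on the right BraA04g027940.3C and BraA03g021010.3C together fill most of every bar.

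The activase RNA came almost wholly from a pair of loci. BraA04g027940.3C (A04, 19622073 to 19625134, minus strand, 2 transcripts) had 34.2, 31.8 and 33.4 FPKM in petiole libraries 1, 2 and 3, against 386, 376 and 378 FPKM in leaf libraries 1, 2 and 3. Libraries of a tissue were nearly equal and the tissues lay far apart, with means of 33.1 ± 1.23 FPKM in petiole and 380.0 ± 5.21 FPKM in leaf (SD, n = 3 each). The log2 fold change was -4.26 (SE 0.045, edgeR adjusted p = 1.91e-12), a 19.1-fold lower level in petiole. In rank it stood at 2906 in petiole and at 58 in leaf.

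BraA03g021010.3C (A03, 10007148 to 10009433, minus strand, 2 transcripts) had 22.3, 25.5 and 27.1 FPKM in petiole libraries 1, 2 and 3, against 251, 238 and 251 FPKM in leaf libraries 1, 2 and 3. All petiole libraries were well below all leaf libraries, with means of 25.0 ± 2.45 FPKM in petiole and 247 ± 7.22 FPKM in leaf (SD, n = 3 each). Its log2 fold change was -4.04 (SE 0.079, edgeR adjusted p = 5.3e-10), which is 16.5-fold lower in petiole. Both abundant loci thus changed by nearly the same factor. Their ratio, BraA03g021010.3C over BraA04g027940.3C on FPKM, was 0.653, 0.803 and 0.812 in petiole libraries 1, 2 and 3 and 0.649, 0.634 and 0.664 in leaf libraries 1, 2 and 3, so that petiole library 1 fell within the leaf range (exact permutation p = 0.2, also 0.2 after adjustment over 5 ratios, which were chosen with the values known).

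The third activase locus, BraA05g006330.3C (A05, 3197411 to 3200121, plus strand, 2 transcripts), had 0.486, 0.347 and 0.328 FPKM in petiole libraries 1, 2 and 3, against 7.32, 8.31 and 8.18 FPKM in leaf libraries 1, 2 and 3. It was a minor source of activase RNA in both tissues and fell furthest of the 4, with petiole libraries holding 31.5, 21.2 and 19.0 fragments. The log2 fold change was -5.08 (SE 0.17, edgeR adjusted p = 1.31e-09), a 33.8-fold lower level in petiole. Relative to BraA03g021010.3C on FPKM it stood at 0.0158 ± 0.0052 in petiole and 0.0322 ± 0.00285 in leaf (SD, n = 3 each; exact permutation p = 0.1, 0.125 after adjustment over 5 ratios).

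BraA05g006330.3C and BraA03g021010.3C also shared their surroundings, which the choice of loci did not use. Both had a locus for the probable methyltransferase PMT11 on the 5′ side, at 846 bases from BraA05g006330.3C and 747 bases from BraA03g021010.3C. Both had a locus for the probable E3 ubiquitin ligase RHC2A on the 3′ side, at 804 bases from BraA05g006330.3C and 4589 bases from BraA03g021010.3C. Neither of the other activase loci had such neighbours.

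BraA07g037300.3C (A07, 25934601 to 25936822, minus strand, 1 transcript) differed least between the tissues. It had 2.4, 2.69 and 2.07 FPKM in petiole libraries 1, 2 and 3, against 5.43, 5.39 and 4.35 FPKM in leaf libraries 1, 2 and 3. The tissues did not overlap, but the gap was small, with a log2 fold change of -1.82 (SE 0.15, edgeR adjusted p = 2.21e-06), or 3.53-fold lower in petiole. Of all loci tested 11.2% had a lower log2 fold change. Relative to BraA04g027940.3C on FPKM it stood at 0.0723 ± 0.0114 in petiole and 0.0133 ± 0.00157 in leaf, 5.42-fold higher in petiole (SD, n = 3 each; exact permutation p = 0.1, 0.125 after adjustment over 5 ratios). Its annotation differs as well: the other 3 activase loci carry the gene ontology term for Rubisco activator activity in the deposited table, and this one carries terms for ATP binding and ATPase activity without it.

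In the order of mean petiole FPKM, the activase loci ran from BraA04g027940.3C (33.1) and BraA03g021010.3C (25.0) through BraA07g037300.3C (2.39) to BraA05g006330.3C (0.387), with no overlap between neighbours. The leaf order was BraA04g027940.3C (380.0), BraA03g021010.3C (247), BraA05g006330.3C (7.94) and BraA07g037300.3C (5.06), again without overlap, so the last 2 changed places. As shares of the summed activase FPKM, BraA04g027940.3C made up 54.4% ± 2.7 in petiole and 59.4% ± 0.48 in leaf and BraA03g021010.3C 41.0% ± 2.97 in petiole and 38.6% ± 0.595 in leaf (SD, n = 3 each; exact permutation p = 0.1 and 0.4, or 0.133 and 0.4 after adjustment over 4 loci). BraA07g037300.3C made up 3.93% ± 0.592 in petiole and 0.791% ± 0.0986 in leaf, and BraA05g006330.3C 0.638% ± 0.158 in petiole and 1.24% ± 0.102 in leaf (SD, n = 3 each; exact permutation p = 0.1 for both, 0.133 adjusted).

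Summed over the 4 loci, activase reached 60.9 ± 1.85 FPKM in petiole and 640 ± 10.7 FPKM in leaf, and small chain reached 0.311 ± 0.0808 FPKM in petiole and 240 ± 16.8 FPKM in leaf (SD, n = 3 each). Activase over small chain was 236, 150 and 226 in petiole libraries 1, 2 and 3 and 2.68, 2.46 and 2.89 in leaf libraries 1, 2 and 3. The 2 ranges were far apart, a 74.9-fold higher ratio in petiole (log2 difference 6.23, exact permutation p = 0.1, the smallest possible). This value depends on which small chain loci are counted. Over all 7 loci with the KEGG entry, the small chain sum was 415 ± 1.44 FPKM in petiole and 5789 ± 293 FPKM in leaf, 13.9-fold lower in petiole, where activase was 10.5-fold lower. The ratio was then 0.144, 0.145 and 0.151 in petiole libraries 1, 2 and 3 and 0.113, 0.103 and 0.116 in leaf libraries 1, 2 and 3, still without overlap but 1.32-fold higher in petiole (log2 difference 0.41, exact permutation p = 0.1).

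**Figure D3:**
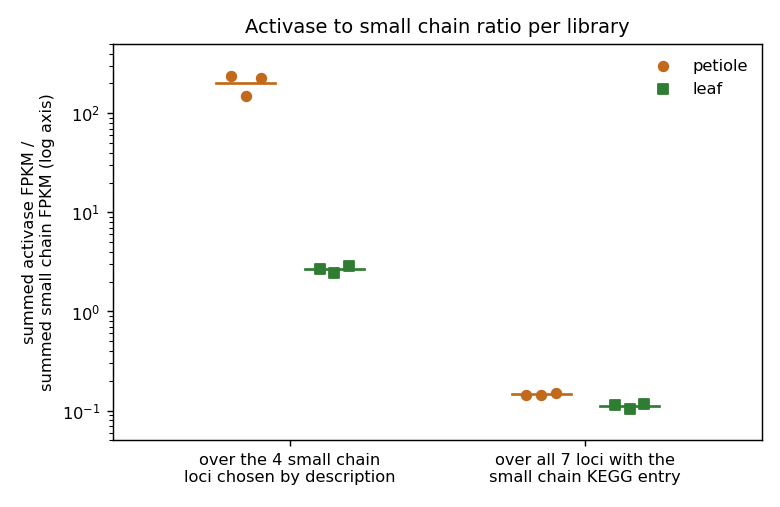
Ratio of summed activase FPKM to summed small chain FPKM (log axis) in each petiole library (circles) and leaf library (squares), with bars at the tissue means. Over the 4 small chain loci chosen by description petiole lies at 150 to 236 and leaf at 2.46 to 2.89; over all 7 loci with the small chain KEGG entry petiole lies at 0.144 to 0.151 and leaf at 0.103 to 0.116.

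The large chain had no locus with a single gene name. A merged locus on A01 (18124488 to 18531922, plus strand) that includes a large chain description had 55.6, 63.0 and 367 FPKM in petiole libraries 1, 2 and 3, against 2755, 3673 and 3030 FPKM in leaf libraries 1, 2 and 3. Petiole library 3 stood apart from the other 2 petiole libraries, though all 3 lay below leaf. The log2 fold change was -5.02 (SE 1.1, edgeR adjusted p = 0.0162), and -6.47 (SE 0.18, adjusted p = 4.99e-06) without petiole library 3. The merged locus spans other genes too, so its level is not that of the large chain alone.

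Of the other Calvin cycle enzymes, 34 of 35 loci were tested, of which 28 were lower in petiole, 2 were higher and 4 did not pass, with a median log2 fold change of -2.74. The list was matched by enzyme name, so not every locus is a chloroplast enzyme. Among those not passing is a ribulose-phosphate 3-epimerase described as cytoplasmic (MSTRG.25129, log2 fold change 0.21, edgeR adjusted p = 0.0823). Phosphoribulokinase, which makes the sugar that Rubisco carboxylates, fell at both loci: MSTRG.26319 averaged 10.9 ± 0.544 FPKM in petiole and 78.2 ± 1.74 FPKM in leaf (log2 fold change -3.58, SE 0.053, edgeR adjusted p = 8.14e-12), and MSTRG.14029 4.58 ± 0.226 FPKM in petiole and 24.4 ± 0.649 FPKM in leaf (-3.15, SE 0.072, 1.13e-10; SD, n = 3 each). The largest changes were at chloroplast aldolase and sedoheptulose-1,7-bisphosphatase, enzymes of the regeneration phase. Aldolase 2 at MSTRG.17 averaged 0.14 ± 0.122 FPKM in petiole and 52.4 ± 1.66 FPKM in leaf (-9.24, SE 0.67, 0.000316), while its paralog MSTRG.23065 averaged 19.9 ± 0.431 FPKM in petiole and 253 ± 2.48 FPKM in leaf (-4.41, SE 0.042, 1.16e-12). With 11.9, 0 and 9.52 fragments in petiole libraries 1, 2 and 3, MSTRG.17 passed the filter on low counts only through leaf. Its direction was fixed by the filter, and the 28 loci lower in petiole include it. Sedoheptulose-1,7-bisphosphatase at MSTRG.10699 averaged 0.229 ± 0.116 FPKM in petiole and 20.8 ± 0.758 FPKM in leaf (-7.2, SE 0.31, 1.49e-06). As with the small chains, some paralogs of an enzyme were near 0 in petiole while others kept a measurable level. The 2 loci higher in petiole were aldolase 3 at MSTRG.5273 (68.2 ± 0.485 FPKM in petiole, 28.3 ± 0.36 FPKM in leaf) and a ribose-5-phosphate isomerase 1 at MSTRG.4457 (23.1 ± 1.46 FPKM in petiole, 7.93 ± 0.606 FPKM in leaf, SD, n = 3 each). The description of MSTRG.4457 does not name the chloroplast.

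**Figure D4:**
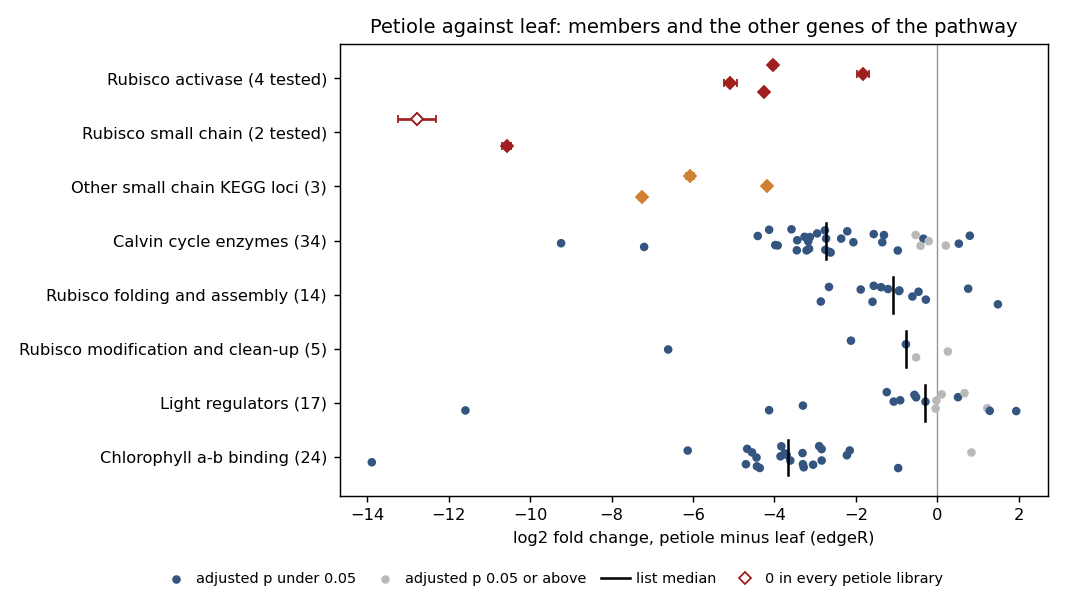
Log2 fold change of petiole over leaf (edgeR) for the activase loci, the small chain loci and the 3 further KEGG loci (diamonds with SE bars) and for the loci of 4 pathway lists and the chlorophyll a-b binding list (points, with a line at each list's median). The activase loci run from -5.08 to -1.82 and the small chain locus BraA07g019510.3C stands at -10.58; the open diamond is BraA02g017420.3C, whose fitted value is no bound because petiole is at 0.

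Chaperonins and assembly factors fold the large chain and join it with the small chain. Of 15 such loci, 14 were tested, of which 12 were lower in petiole and 2 higher, with a median log2 fold change of -1.08; limma on log2(FPKM + 1) called 6 lower and 4 higher. Rubisco accumulation factor 1 (BraA06g034390.3C), which in maize and Arabidopsis helps large chains assemble, had 4.5, 5.58 and 5.26 FPKM in petiole libraries 1, 2 and 3 and 20.5, 25.2 and 21.3 FPKM in leaf libraries 1, 2 and 3. That is a clear gap, at a log2 fold change of -2.86 (SE 0.11, edgeR adjusted p = 3.69e-09). Among the chloroplast chaperonins, which fold the large chain, the most abundant locus, the alpha subunit MSTRG.19769, was 50.7 ± 2.82 FPKM in petiole and 58.3 ± 2.63 FPKM in leaf (-0.94, SE 0.057, 1.62e-07). The beta 2 subunit MSTRG.8591 was higher in petiole, at 10.6 ± 0.883 FPKM in petiole and 2.28 ± 0.0875 FPKM in leaf (1.49, SE 0.09, 1.62e-07; SD, n = 3 each), as was the beta 3 subunit MSTRG.6944 (0.76, SE 0.056, 7.72e-07). The descriptions matched no RbcX, BSD2 or chloroplast 10 kDa chaperonin locus.

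Modification and clean-up of Rubisco products was represented by 5 loci, of which 3 were lower in petiole and 2 did not pass (median log2 fold change -0.77). Phosphoglycolate phosphatase 1B (MSTRG.11078), which removes the product of the oxygenase reaction, averaged 26.7 ± 1.41 FPKM in petiole and 69.3 ± 1.39 FPKM in leaf (log2 fold change -2.12, SE 0.051, edgeR adjusted p = 1.53e-10). There were 3 loci for the large subunit N-methyltransferase. MSTRG.2809 averaged 9.97 ± 1.06 FPKM in petiole and 10.2 ± 0.378 FPKM in leaf (-0.77, SE 0.081, 1.27e-05), a call that is lost on the FPKM scale, where limma gave -0.03 (adjusted p = 0.717). MSTRG.27163 averaged 0.0399 ± 0.0349 FPKM in petiole and 2.54 ± 0.231 FPKM in leaf (-6.61, SE 0.64, 5.67e-05). With 4.23, 0 and 3.17 fragments in petiole libraries 1, 2 and 3, it passed the filter on low counts only through leaf. Its direction was fixed by the filter, and the 3 loci lower in petiole include it. MSTRG.27165 averaged 3.02 ± 0.87 FPKM in petiole and 2.59 ± 0.317 FPKM in leaf and did not pass (-0.52, SE 0.21, adjusted p = 0.0575; SD, n = 3 each). Its direction depends on the scale, since limma on log2(FPKM + 1) gave 0.14 (adjusted p = 0.449), and it passed as lower in petiole in edgeR on counts per fragment, with DESeq2 and without petiole library 2.

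The light regulators of photosynthesis genes were mixed, with 9 of 17 tested loci lower in petiole, 3 higher and 5 not passing (median log2 fold change -0.29). The 9 include GLK1-like MSTRG.18696, which was at 0 in every petiole library and passed the filter on low counts only through leaf. The balance turns with the scale: limma on log2(FPKM + 1), the scale of the levels given here, called 5 lower and 10 higher in petiole. GLK1 and GLK2, activators of chloroplast development genes, were lower in petiole: GLK1-like MSTRG.27912 averaged 2.34 ± 0.658 FPKM in petiole and 24.6 ± 0.948 FPKM in leaf (log2 fold change -4.13, SE 0.19, edgeR adjusted p = 6.2e-07), and GLK2-like MSTRG.18547 averaged 2.27 ± 0.37 FPKM in petiole and 13.5 ± 0.231 FPKM in leaf (-3.3, SE 0.12, 3.79e-09). A further GLK2-like locus, MSTRG.5121, fell less (-1.24, SE 0.19, 0.000193). PIF5 (MSTRG.27406), of the phytochrome-interacting family that represses light responses, averaged 17.0 ± 0.73 FPKM in petiole and 21.3 ± 0.665 FPKM in leaf (-1.07, SE 0.054, 3.7e-08). The other PIF loci went both ways. MSTRG.7619 (-0.91) and MSTRG.28389 (-0.56) were called lower in petiole and PIF6-like MSTRG.20254 (1.29, SE 0.19, 0.000178) higher. MSTRG.15883 (-0.04), MSTRG.12405 (0.11) and MSTRG.27574 (0.67) did not pass. HY5 (MSTRG.30436), an activator of light-induced genes, was higher in petiole at 3.84 ± 0.26 FPKM in petiole and 0.597 ± 0.116 FPKM in leaf (1.94, SE 0.21, 1.41e-05; SD, n = 3 each).

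Loci with the most similar profile were ranked by the root mean square difference of centred log2(CPM + 1) over the 6 libraries, among 28175 tested loci with a single gene name. The small chain sum here is that of the 4 loci chosen by description, in leaf mostly BraA07g019510.3C. The sum of the 7 KEGG loci was not ranked. Similar profiles were common: 2445 loci had a Pearson correlation of at least 0.99 with the small chain sum and 2431 with the activase sum. Closest to the summed small chain were a pathogenesis-related protein 1-like locus (MSTRG.9017, 0.158 log2 units), beta carbonic anhydrase 1 (MSTRG.15254, 0.248), a serine-glyoxylate aminotransferase-like locus (MSTRG.8999, 0.26), a phylloplanin-like locus (MSTRG.2410, 0.368) and the aldolase 2 locus MSTRG.17 (0.503). Beta carbonic anhydrase 1, a carbon dioxide-handling enzyme of the leaf, averaged 0.236 ± 0.0511 CPM in petiole and 327 ± 6.53 CPM in leaf (SD, n = 3 each). Closest to the summed activase were ATP synthase gamma chain 1 (MSTRG.8029, 0.037), a locus described as BnaA09g39170D (MSTRG.27530, 0.0553), the small chain KEGG locus BraA04g011050.3C (0.0611), TIC 32 (MSTRG.30847, 0.0621) and 4-hydroxyphenylpyruvate dioxygenase (MSTRG.28515, 0.0623). ATP synthase gamma chain 1, a subunit of the chloroplast ATP synthase, averaged 6.7 ± 0.362 CPM in petiole and 131 ± 1.56 CPM in leaf. TIC 32 was listed at 0 in every petiole library and averaged 15.4 ± 0.482 CPM in leaf. The pseudocount of 1 CPM compresses the difference of every locus whose petiole level lies below it, so likeness does not mean an equal fold there. This holds for TIC 32, for MSTRG.27530 (0.0921 CPM in petiole, log2 fold change -7.63), for the small chain sum itself (0.178 CPM in petiole) and for the loci closest to it except MSTRG.8999 (1.69 CPM in petiole).

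Of the small chain and activase loci, 2 overlapped genes on the opposite strand, and no source says that reads were counted by strand. BraA04g027940.3C shared 328 bases with a succinate dehydrogenase assembly factor 1 locus (MSTRG.12225), which had 4.53, 4.92 and 5.01 FPKM in petiole libraries 1, 2 and 3 and 4.77, 5.28 and 5.07 FPKM in leaf libraries 1, 2 and 3, far below the activase locus in both tissues. BraA07g019510.3C lies wholly inside a merged locus (MSTRG.19851, with ABHD17B and XBAT34), which was higher in petiole at 53.0, 51.1 and 56.6 FPKM in petiole libraries 1, 2 and 3 and 19.4, 21.8 and 19.7 FPKM in leaf libraries 1, 2 and 3 (log2 fold change 0.66, SE 0.055, edgeR adjusted p = 1.94e-06). Its direction was thus opposite to that of the small chain locus within it.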

How the data were processed

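RNA-seq of 3 petiole and 3 leaf libraries was analysed from the deposited table, in which, per the file headers, each locus has its estimated counts and FPKM in every library. The deposited estimated counts were whole numbers whose low values fell at multiples of 3.78 units per fragment (median), so that 1 unit is less than 1 fragment; the deposited FPKM held 0.0001 where the count was 0, shown here as 0. No aligner, counter or plant build is named in a role: not given in the sources used here. Bowtie 0.12.2 and mm8, a mouse build, appear in the submitters' processing notes without a role. Coordinates are those of the deposited table, and exon positions were not analysed here.

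Counts were tested with edgeR 4.0.16 (R 4.3.3): filterByExpr, TMM factors (1.095 to 1.137 in petiole, 0.8849 to 0.9249 in leaf), robust quasi-likelihood fit with tissue alone, two-sided, Benjamini-Hochberg adjustment over 31473 loci, threshold 0.05. Alternatives were limma 3.58.1 on log2(FPKM + 1), also with a pseudocount of 0.1 or without the mean FPKM minimum of 1, DESeq2 1.42.0, RLE factors, no filter, counts per fragment, a replicate block and leaving out each library. Shares and ratios used exact permutation tests over libraries (SciPy 1.17.1). CPM are counts over TMM-scaled library sizes. The floor was 3 fragments, or 12 units, per library; intervals and floors cover counting error only.

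The members and all lists were chosen with earlier results of these data known. Lists were matched by description among loci with a single gene name, 45666 of 49200 loci. Named were all members, loci overlapping them, the large chain, accumulation factor and N-methyltransferase loci, up to 3 called loci per list with the largest change and a mean of at least 5 FPKM in the higher tissue, and the 5 closest profiles per sum. Phosphoribulokinase, aldolase 3, ribose-5-phosphate isomerase 1, the cytoplasmic epimerase, chaperonin beta 3 and HY5 were named after their values were seen. The same holds for the PIF loci other than PIF5, for MSTRG.18696 and MSTRG.5121, and for the phloem locus MSTRG.25651. So were the 3 further KEGG loci and the loci overlapping them.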

Additional observations from a re-analysis of the deposited data

How the results depend on the processing

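The 4 activase loci kept their direction and call under all 14 alternatives. Their log2 fold changes ran from -4.28 to -3.48 for BraA04g027940.3C, -4.11 to -3.26 for BraA03g021010.3C, -5.28 to -2.69 for BraA05g006330.3C and -1.91 to -0.84 for BraA07g037300.3C. The small chain locus BraA07g019510.3C also kept both, at -10.66 to -7.54, with the limit on its petiole counts given above. For BraA02g017420.3C the direction was fixed by the filter, so its unchanged call is no support. Its values ran from -12.91 to -3.11, a size that follows the prior or pseudocount because petiole is at 0. On the FPKM scale most loci shift toward petiole, and list counts moved with it. With limma on log2(FPKM + 1), log2(FPKM + 0.1) and log2(FPKM + 1) without a filter, 3964, 3921 and 5084 loci were lower in petiole (9802 in edgeR) and 15791, 15725 and 18431 higher (9909 in edgeR); of the calls, 79.9%, 80.0% and 78.4% were higher in petiole, against 50.3% in edgeR. In the same 3 settings 5 Calvin cycle loci (2 in edgeR), 4 folding and assembly loci (2 in edgeR), 1 modification and clean-up locus (0 in edgeR) and 10 light regulators (3 in edgeR) were higher in petiole; with the filter and either pseudocount, 6 folding and assembly loci (12 in edgeR) and 5 light regulators (9 in edgeR) were lower. The N-methyltransferase locus MSTRG.27165 reversed to 0.14, 0.17 and 0.14 there (-0.52 in edgeR), not past the threshold; at -0.52 with counts per fragment (adjusted p = 0.0334), -0.51 with DESeq2 (0.0491) and -0.67 without petiole library 2 (0.0326) it passed.

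Leaving out libraries changed the share of BraA07g019510.3C among the 4 small chain loci from -20.2 to 3.26 percentage points, petiole minus leaf, the last without petiole library 2. Leaving out libraries gave 0 to 1 modification and clean-up loci higher in petiole, the 1 without petiole library 2. The log2 difference of the activase to small chain ratio ran from 6.11 to 6.44 over the libraries left out and was 6.18 on CPM and 6.18 without BraA07g037300.3C, but 0.41 over the 7 loci with the small chain KEGG entry; the last 2 were chosen after seeing the data. Shares without members that overlap another locus or are low could not be computed, since the only small chain locus left is at 0 in petiole.

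Samples with the same replicate number did not deviate together (r = 0.0303, -0.00357 and -0.00475 across loci), and not every library correlated best with its own number. With the replicate block edgeR called 18683 loci, against 19711 without it. The merged large chain locus then missed the threshold (-5.64, adjusted p = 0.0529), and no other call among the loci recomputed changed with the block. Depth limits the small chain loci in petiole, where BraA07g019510.3C rests on 16 fragments in all.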

Other observations

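Each of the 3 further loci with the small chain KEGG entry has a locus of the same gene name on the opposite strand. Opposite BraA04g011050.3C, MSTRG.11133 had 32.8, 45.4 and 45.5 FPKM in petiole libraries 1, 2 and 3 and 462, 608 and 528 FPKM in leaf libraries 1, 2 and 3. It held 4.96%, 6.66% and 6.72% of the counts of both strands in petiole libraries 1, 2 and 3 and 6.28%, 7.75% and 7.47% in leaf libraries 1, 2 and 3, so the shares of the tissues overlapped. Opposite the merged locus, MSTRG.11130 held 3.16%, 0% and 0.621% in petiole libraries 1, 2 and 3 and 6.06%, 5.0% and 6.52% in leaf libraries 1, 2 and 3. Opposite BraA04g014860.3C, MSTRG.11385 was listed at 0 in every petiole library and held 9.24%, 4.8% and 4.24% in leaf libraries 1, 2 and 3. Whether these are transcripts of the opposite strand or reads assigned to it was not tested.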
